A study of Homo sapiens with 8 samples.

Results

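The 6 genes MFAP2, DECR1, C2CD2, GUCY1B2, ZNF22 and LOC84856 were selected on their signals, because their probes read near background in FT293 cells expressing HuR and clearly above it in cells expressing GFP, TIA1 or TIAR. They were found by gene name and are represented by 7 of the 50599 probes on the array, or 6 of its 36337 gene names. LOC84856 has 2 probes under its name and each of the other genes has 1. The signals of the HuR arrays chose these genes, so their difference between HuR and the other lines is described here without a test. Replicate spread and tests are given only for the GFP, TIA1 and TIAR lines among themselves, nearby genes and lists of other genes. The choice also required clear signals in GFP, TIA1 and TIAR, so a gene near background in any of these lines could not enter.

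FT293 cells are HEK293 human embryonic kidney cells of the Flp-In T-REx System, in which a transgene is placed at a fixed genomic site and switched on by tetracycline. The 4 lines compared carry GFP alone (labelled GFP), GFP-HuR (HuR), GFP-TIA1 (TIA1) or GFP-TIAR (TIAR), all in the same HEK293 background, and their RNA was taken on day 3 of tetracycline. Each line gave 2 one-colour arrays. The second TIA1 array is titled GFP-TIA1 but has GFP-TIA2 as its source name, and the title was followed. All 8 arrays lay on 1 slide, and nothing in the labels says whether the 2 arrays of a line came from separate cultures, so the spread between them may be technical. Since each protein is represented by a single derived line, an effect of the protein and a property of that line cannot be told apart.

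HuR, encoded by ELAVL1, and the TIA proteins are RNA-binding proteins that recognize U-rich and AU-rich stretches, and they control the splicing, stability and translation of their target RNAs. The 6 genes have no common pathway. MFAP2 encodes a glycoprotein of the microfibrils on which elastic fibres form, DECR1 the mitochondrial reductase needed to oxidize polyunsaturated fatty acids, ZNF22 a nuclear zinc finger protein and C2CD2 a protein with a C2 domain. GUCY1B2 is related to the beta subunits of the soluble guanylate cyclase that answers nitric oxide, and RefSeq lists it as a transcribed pseudogene in humans, while LOC84856 is the long noncoding RNA LINC00839. All 6 accessions matched RefSeq.

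The probe sequences of MFAP2, GUCY1B2 and LOC84856 are shown because a silent reading rests on a single stretch of 60 bases. They are written 5′ to 3′ on the strand of the transcript, with runs of at least 4 T in capitals because U-rich stretches are what HuR and the TIA proteins bind. Coordinates of the probes are those of the array files (hg19). The MFAP2 probe covers chr1:17302138-17302197 on the minus strand and starts at base 428 of its transcript. The GUCY1B2 probe covers chr13:51568809-51568868 on the minus strand, and a second probe described as guanylate cyclase 1, soluble, beta 2 but named ENST00000389600 covers chr13:51589554-51589613 on the same strand. The LOC84856 probes cover chr10:42989735-42989794 (A_23_P63736) and chr10:42990287-42990346 (A_21_P0006610) on the plus strand, 552 bases apart.
MFAP2: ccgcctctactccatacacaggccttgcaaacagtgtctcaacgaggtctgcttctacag
GUCY1B2: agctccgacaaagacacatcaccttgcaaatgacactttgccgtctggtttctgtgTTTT
ENST00000389600: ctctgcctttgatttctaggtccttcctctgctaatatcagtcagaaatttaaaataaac
LOC84856 A_23_P63736: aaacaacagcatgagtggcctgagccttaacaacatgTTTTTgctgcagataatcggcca
LOC84856 A_21_P0006610: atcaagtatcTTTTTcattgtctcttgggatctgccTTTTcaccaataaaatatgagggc
Runs of 4 T were present in the GUCY1B2 probe and in both LOC84856 probes and absent from the MFAP2 probe and from the second GUCY1B2 probe. The letters TTTT were searched on this strand alone and were found in 31.4% of all 50599 probes.

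The 250 bases before the annotated start are shown for the 4 genes with an entry in the RefSeq promoter table (GRCh38.p14), because the genes are low together in the same line and their starts can be compared. Where a gene has several starts the outermost is shown, and CG dinucleotides, the sites of DNA methylation, are in capitals. The windows are chr1:16981584-16981833 (minus strand) for MFAP2, chr21:41954019-41954268 (minus strand) for C2CD2, chr10:45000673-45000922 (plus strand) for ZNF22 and chr10:42475241-42475490 (plus strand) for LINC00839.
MFAP2: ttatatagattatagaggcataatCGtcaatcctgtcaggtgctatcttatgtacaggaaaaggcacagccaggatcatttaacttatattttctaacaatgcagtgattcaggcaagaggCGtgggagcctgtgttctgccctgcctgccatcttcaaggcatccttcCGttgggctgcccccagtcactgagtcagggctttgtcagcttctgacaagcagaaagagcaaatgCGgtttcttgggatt
C2CD2: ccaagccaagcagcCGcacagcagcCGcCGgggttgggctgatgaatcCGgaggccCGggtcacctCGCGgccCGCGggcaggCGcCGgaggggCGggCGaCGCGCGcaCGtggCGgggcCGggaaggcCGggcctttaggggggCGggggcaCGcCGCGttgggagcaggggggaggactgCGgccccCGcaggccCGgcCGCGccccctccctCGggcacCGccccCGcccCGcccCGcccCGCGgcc
ZNF22: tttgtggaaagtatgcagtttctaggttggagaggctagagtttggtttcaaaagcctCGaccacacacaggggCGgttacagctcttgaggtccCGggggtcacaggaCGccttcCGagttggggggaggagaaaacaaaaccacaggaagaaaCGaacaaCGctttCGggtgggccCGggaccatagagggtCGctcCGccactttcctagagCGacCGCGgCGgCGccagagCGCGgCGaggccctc
LINC00839: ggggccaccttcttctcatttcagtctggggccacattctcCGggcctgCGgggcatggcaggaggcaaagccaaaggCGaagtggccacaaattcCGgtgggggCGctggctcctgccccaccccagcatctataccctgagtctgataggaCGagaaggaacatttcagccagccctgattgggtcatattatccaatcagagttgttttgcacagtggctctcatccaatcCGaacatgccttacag
The windows differed widely. C2CD2 had 36 CG with a GC content of 82.8%, and 4.85% of the 35116 promoters in the table had as many. ZNF22 had 19 (34.6% of promoters had as many), LINC00839 had 7 (58.9%) and MFAP2 had 4 (70.7%), against a median of 11 over all promoters. A further MFAP2 start, chr1:16980621-16980870, had 28 CG, and a further C2CD2 start, chr21:41926704-41926953, had 2. Methylation was not measured in these samples.

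Levels are given as log2 of the background-subtracted signal minus the 75th percentile of the same array, so that 0 stands for that percentile and each unit for a 2-fold change. The flag "well above background" is the scanner software's own detection call. Between 53.2% and 58.5% of probes carried it on 7 arrays and 86.0% on GFP 1, whose median local background was 82 against 36 to 41.5 on the others. Values of GFP 2 alone are therefore given beside those of the GFP line. Of the HEK293 markers PAX2, NEFL, VIM, KRT8, KRT18 and EYA1 were detected on all 8 arrays and NEFM on 7, and of 6 markers of other cell types PTPRC and COL1A1 were detected on all 8 and ALB on 6, while CD3E was detected on 2, HBB on 1 and PECAM1 on 2 arrays. The ELAVL1 probe read 0.33 and 0.42 on the HuR arrays and 1.09 and 0.91 on the GFP arrays. The 2 TIA1 probes averaged -1.10 and -0.97 in the TIA1 line and -0.53 and 0.06 in GFP, and of the 2 TIAL1 probes one averaged 4.93 in the TIAR line against 2.26 in GFP and the other -3.98 against -3.57. Whether the ELAVL1 and TIA1 probes lie in the part that the transgenes carry is not known, so they do not check the labels of those lines.

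All 7 probes were well above background on the 6 GFP, TIA1 and TIAR arrays and on neither HuR array. As whole cultures were measured, fewer expressing cells and less RNA per cell cannot be told apart. Because the HuR readings are not well above background, a fold is given only as a bound on this scale. It sets the mean of the brighter line against the mean of the lowest detected signal on each HuR array. The probe's own reading was used where that was higher. Other ways of handling the background gave smaller differences, described below.

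MFAP2 had the widest separation of the 7 probes. Its level was 0.56 and 0.97 on the GFP arrays, 0.99 and 1.05 on the TIA1 arrays, 0.95 and 0.89 on the TIAR arrays, and -8.27 and -8.06 on the HuR arrays. The 6 detected arrays lay within 0.50 of each other, and the lowest of them was 8.62 above the higher HuR array. The bound was at least 110.0-fold higher in GFP than in HuR (at least 126.7-fold with GFP 2 alone), at least 131.9-fold in TIA1 and at least 122.6-fold in TIAR. In processed signal, MFAP2 read between 2393 and 2694 on the detected arrays and 5.06 and 6.24 on the HuR arrays.

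DECR1 is read by a probe that crosses an exon junction (chr8:91031178-91031356, plus strand). Its level was -1.38 and -1.05 in GFP, -1.12 and -1.21 in TIA1, -1.21 and -1.24 in TIAR, and -7.14 and -8.33 in HuR. DECR1 had the narrowest range over the detected arrays, 0.33, and the bound was at least 28.0-fold for GFP (31.4-fold with GFP 2 alone), at least 29.0-fold for TIA1 and at least 27.8-fold for TIAR over HuR.

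ZNF22 is read by a probe at chr10:45500488-45500547 on the plus strand. Its level was 0.24 and 0.70 in GFP, -0.15 and -0.48 in TIA1, 0.78 and 0.89 in TIAR, and -6.80 and -8.14 in HuR. Of the 7 probes it had the widest range over the detected arrays, 1.36, with both TIA1 arrays below both GFP arrays and both TIAR arrays above them. The bound was at least 89.8-fold for GFP (105.7-fold with GFP 2 alone), at least 52.2-fold for TIA1 and at least 115.6-fold for TIAR over HuR.

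C2CD2 is read by a probe at chr21:43306033-43306092 on the minus strand, which starts at base 5473 of the transcript. Its level was -2.98 and -3.68 in GFP, -2.94 and -3.03 in TIA1, -3.56 and -3.52 in TIAR, and -8.13 and -8.29 in HuR. The bound was at least 6.46-fold for GFP (5.07-fold with GFP 2 alone), at least 8.20-fold for TIA1 and at least 5.57-fold for TIAR over HuR.

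GUCY1B2 read -0.29 and -0.33 in GFP, -0.02 and -0.36 in TIA1, -0.26 and 0.01 in TIAR, and -8.08 and -6.44 in HuR. The bound was at least 52.4-fold for GFP (51.7-fold with GFP 2 alone), at least 56.8-fold for TIA1 and at least 59.5-fold for TIAR over HuR. The second probe of the gene, 20.7 kb away and shown above as ENST00000389600, read -2.28 and -2.55 in GFP, -2.54 and -2.34 in TIA1, -2.71 and -2.67 in TIAR, and -5.62 and -5.76 in HuR. It was low in HuR as well, by 3.18 on the log2 scale against the mean of the other arrays, yet it stayed well above background on both HuR arrays. The GUCY1B2 reading in HuR was thus not well above background by one probe and well above it by the other.

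LOC84856 was low in HuR by both of its probes. A_23_P63736 read -0.40 and -0.68 in GFP, -0.39 and -0.64 in TIA1, -1.64 and -0.87 in TIAR, and -6.07 and -5.80 in HuR, with a bound of at least 40.1-fold for GFP (36.3-fold with GFP 2 alone), at least 40.8-fold for TIA1 and at least 24.4-fold for TIAR. A_21_P0006610 read -3.52 and -4.08 in GFP, -3.63 and -3.55 in TIA1, -4.46 and -4.01 in TIAR, and -6.92 and -7.93 in HuR, with bounds of at least 4.66-fold (3.83-fold with GFP 2 alone), 5.40-fold and 3.45-fold. With both probes the TIAR mean was below the GFP and TIA1 means.

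**Figure D1:**
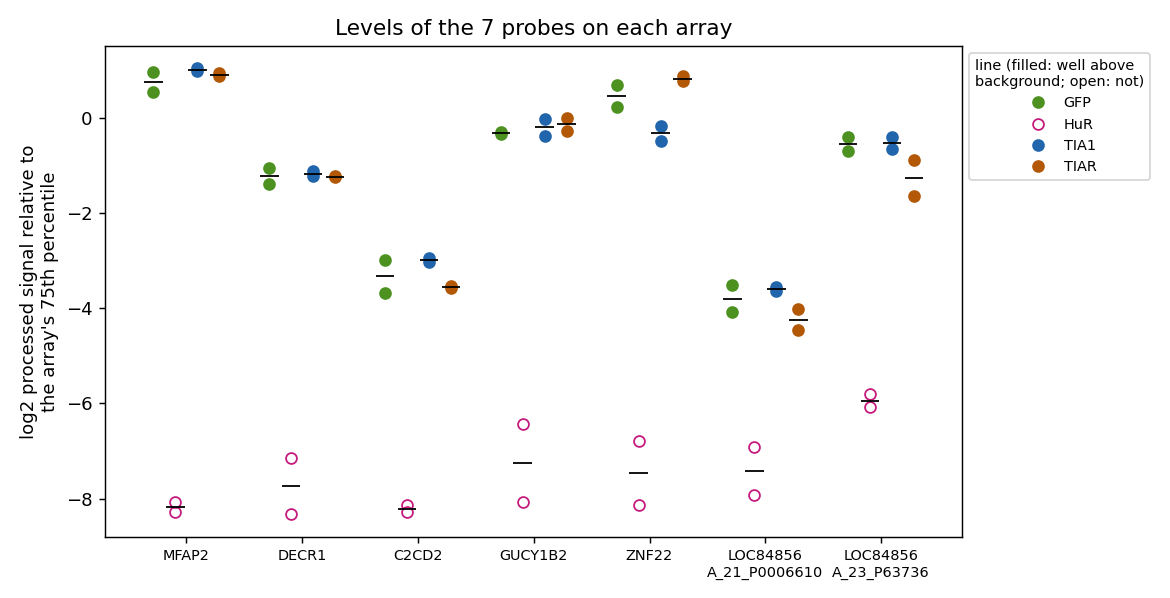
Level of each of the 7 probes on each array, as log2 processed signal minus the array's 75th percentile. Points are single arrays coloured by line, bars are line means, and open points mark readings not well above background. Every HuR point is open and lies at -5.80 or lower, and every other point is filled and lies at -4.46 or higher.

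The size of the difference depends on how the background is handled. The median over the 7 probes of HuR minus the mean of the other arrays was -6.54 on this scale and -5.92 after quantile normalization, but -3.61 after normexp background correction and -3.21 in the authors' own normalized table. In that table MFAP2 differed by -5.22 and LOC84856 by probe A_21_P0006610 by -0.78, and every probe stayed lower in HuR under all 3 alternatives. The bounds above hold only on the scale used here. With normexp and in the authors' table, the difference of each of the 7 probes was smaller than its bounds imply.

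The spots themselves were read without a fault mark. None of the 56 readings was an outlier or saturated, and the spots lay between rows 111 and 290 and columns 17 and 162 of the array. On the HuR arrays their area was 40 to 47 pixels, against 40 to 48 on the others, and their local background was 32 to 39, around the array median of 36. Before background subtraction the 14 HuR readings were 63.3 to 96.9, while the 42 readings of the other lines were 147 to 3168. The negative control spots of the 2 HuR arrays had medians of 60.7 and 62.4 and the central 95% of them ended at 76.9 and 78.0.

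Of the 14 HuR readings, 7 lay above the central 95% of the negative controls. ZNF22 (87.6 and 79.0) and the LOC84856 probe A_23_P63736 (85.6 and 96.9) did so on both HuR arrays, whereas MFAP2 and C2CD2 did so on neither. DECR1 and the other LOC84856 probe were above it on HuR 1 and GUCY1B2 on HuR 2. By the software's weaker flag, for a signal positive and significant against its background, A_23_P63736 passed on both HuR arrays, C2CD2 on neither and the other 5 probes on 1. The word silent therefore stands for a reading near the negative controls, and such a reading does not say how much RNA remained.

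**Figure D2:**
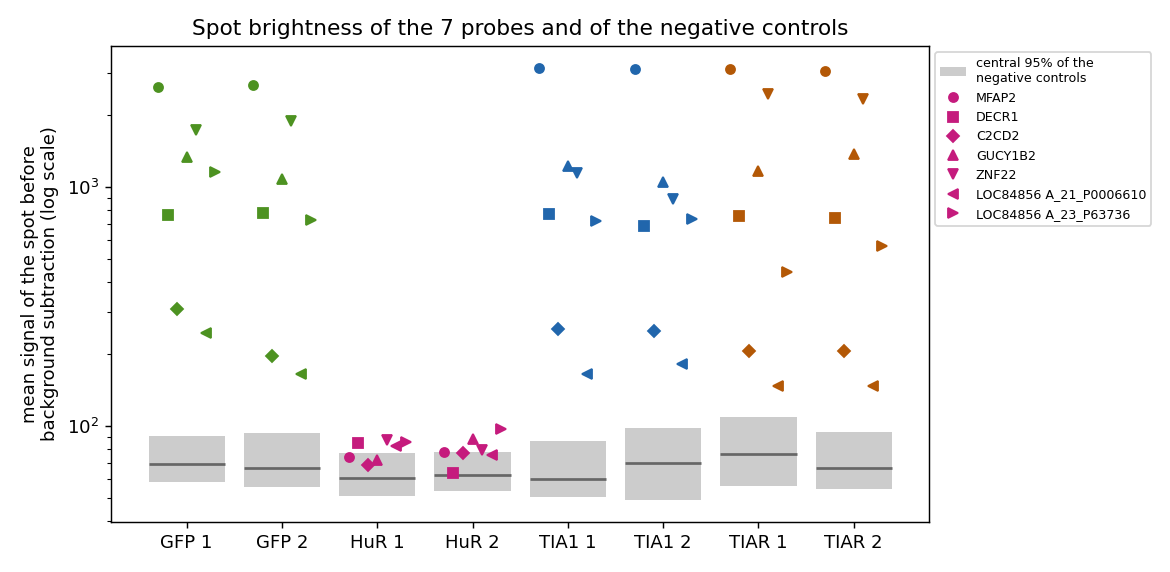
Mean signal of the spot before background subtraction, on a log axis, for the 7 probes (symbols) on each array. Grey boxes span the central 95% of the 308 negative control spots and the grey line is their median. The HuR symbols sit between 63.3 and 96.9, in and just above the grey box, and all others lie at 147 or more.

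Among the GFP, TIA1 and TIAR lines, ZNF22 was the only gene whose probe passed the test. A call needed a 2-fold change and an adjusted p below 0.05. The choice required a clear signal in each of these lines, which limits how far the genes could differ among them. In TIAR versus TIA1, ZNF22 was 1.15 ± 0.16 (SE, n = 2 against 2 arrays) higher on the log2 scale in TIAR, a 2.22-fold difference with an adjusted p of 0.0440 (limma with Benjamini-Hochberg adjustment over all 28059 probes tested). This was 1 of the 7 probes, where 2.35% of all tested probes were called in that comparison. The call held under 4 alternatives (adjusted p 0.0383 to 0.0423) and was lost under 3 (0.0939 to 0.295). It was also lost when any 1 of the 4 arrays was left out (difference 0.99 to 1.31, adjusted p 0.116 to 0.157), where the spread rests on 1 pair of arrays and on limma's pooling over probes, and the lone array is assumed to vary like the pair. C2CD2 (-0.56 ± 0.11, adjusted p = 0.0756) and the LOC84856 probes A_21_P0006610 (-0.65 ± 0.19, adjusted p = 0.138) and A_23_P63736 (-0.74 ± 0.29, adjusted p = 0.221) had lower TIAR than TIA1 means without passing. For MFAP2, DECR1 and GUCY1B2 the TIAR minus TIA1 difference was -0.11 ± 0.11, -0.06 ± 0.11 and 0.07 ± 0.18.

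Against GFP, limma called none of the 7 probes in TIA1 or in TIAR. Over all probes 0% were called in TIA1 versus GFP and 0% in TIAR versus GFP, although 6079 of 28040 and 4686 of 28600 had an unadjusted p under 0.05. ZNF22 was -0.78 ± 0.27 in TIA1 relative to GFP (adjusted p = 0.220), the single one of the 7 with an unadjusted p under 0.05, and 0.36 ± 0.25 in TIAR (adjusted p = 0.510). The remaining differences from GFP ran from -0.72 ± 0.34 for LOC84856 A_23_P63736 in TIAR (adjusted p = 0.387) to 0.34 ± 0.31 for C2CD2 in TIA1 (adjusted p = 0.550).

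Most probes next to the 6 genes were not called in HuR-expressing cells. Within 500 kb of the probe with the largest difference of each gene lie 168 further probes, and these were tested because they did not choose the genes. In HuR versus TIA1, 8 of 89 tested neighbour probes were lower in HuR (8.99%) and 2 were higher, where 8.5% of all tested probes were called lower and 4.9% higher. In HuR versus TIAR, 7 of 91 were lower (7.69%) and 1 was higher, where 7.06% of all were lower and 3.01% higher. The neighbours' median differences were -0.15 and -0.18, against -0.08 and -0.05 over all tested probes. In HuR versus GFP, 0% of all probes were called lower and 0% higher by limma (4970 of 28868 had an unadjusted p under 0.05), and none of 89 neighbour probes was called, with 15 at an unadjusted p under 0.05. Leaving out GFP 1 or GFP 2 gave neighbour probes called lower in HuR than in GFP. Leaving out HuR 1 or HuR 2 reduced the HuR versus TIAR count. These fits leave 1 array in a line, and no share over all tested probes is given for them.

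Within 100 kb, 4 of 23 tested neighbour probes (17.4%) were lower in HuR than in TIA1, where 8.5% of all tested probes were lower. In HuR versus TIAR, 4 of 24 (16.7%) were lower, where 7.06% of all were lower. The calls were 2 probes of PRDM15 and the probes ENST00000400449 and ENST00000483242 against TIA1, and ENST00000400449, C10orf25, C10orf10 and CALB1 against TIAR. Whether ENST00000400449, which is in both counts, is a part of C2CD2 is not known, as set out below. No probe that near was called higher.

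Around MFAP2, the ciliary rootlet gene CROCC, 2.8 kb away on the opposite strand, read 0.75 and 1.04 in GFP, 0.90 and 0.90 in HuR, 0.90 and 0.68 in TIA1 and 1.07 and 0.98 in TIAR. Its difference was 0.11 ± 0.12 in HuR versus TIA1 (adjusted p = 0.475) and -0.13 ± 0.10 in HuR versus TIAR (adjusted p = 0.366), and the groups overlapped. Of the 3 other tested CROCC probes, 30.2 to 38.0 kb away, none was called, although A_21_P0010601 was -0.98 ± 0.15 (adjusted p = 0.0121) and A_21_P0010602 -0.68 ± 0.19 (adjusted p = 0.0468) in HuR versus TIA1. ATP13A2, a lysosomal transport ATPase 11.2 kb to the other side, averaged 1.43 in HuR and 1.14 to 1.33 in the other lines by its nearer probe. SDHB, a subunit of succinate dehydrogenase, averaged 4.37 in HuR and 3.60 to 4.05 elsewhere. The further genes ENST00000356370 and XLOC_l2_000080 were not called, and the arginine deiminase gene PADI2 was called higher in HuR than in TIAR by 1 of its probes (1.07, adjusted p = 0.0355).

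Around DECR1, NBN, a DNA double-strand break sensor 84.9 kb away, averaged 0.23 in HuR and 0.01 to 0.44 in the other lines, and OSGIN2 averaged -2.33 against -2.17 to -1.97. The kinase gene RIPK2 averaged 2.12 in HuR and 1.44 to 1.69 elsewhere and was not called. CALB1, a calcium-binding protein gene 40.5 kb away, read -5.52 and -7.37 in GFP, -7.82 and -6.82 in HuR, -4.26 and -5.33 in TIA1 and -2.36 and -2.60 in TIAR. It was called lower in HuR than in TIAR (-4.84, adjusted p = 0.00542), with an untested bound of at least 11.6-fold. The HuR and GFP arrays overlapped. Beyond CALB1 lie the unnamed transcripts XLOC_007149, which was not called, and XLOC_007150, 574 kb away, which was higher in HuR than in TIA1 (1.18, adjusted p = 0.00321) and in TIAR (1.15, adjusted p = 0.00580).

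Around C2CD2, the nearest probe had the same pattern. It is named ENST00000400449, for an uncharacterized transcript, and lies 8.10 kb away on the same strand. Since C2CD2 spans 68.9 kb in RefSeq (GRCh38), a separate transcript and another stretch of the C2CD2 transcription unit cannot be told apart. The probe read -3.17 and -3.96 in GFP, -7.97 and -8.07 in HuR, -3.67 and -3.74 in TIA1 and -4.17 and -4.12 in TIAR. It was well above background on the same 6 arrays as C2CD2 and on neither HuR array. It was called lower in HuR than in TIA1 (-4.31, adjusted p = 0.00175) and in TIAR (-3.87, adjusted p = 0.00237). The untested bounds were at least 4.97-fold and 3.67-fold, and it was not called against GFP (adjusted p = 0.138). Farther out, 2 of 3 probes of the zinc finger gene PRDM15 (-1.47 and -1.11) and 1 of 3 probes of ZNF295 (-1.01) were called lower in HuR than in TIA1, and none of these in HuR versus TIAR. XLOC_013950, 117 kb away, was called higher in HuR than in TIA1 (1.61, adjusted p = 0.00244) and not against TIAR, and XLOC_013952 was not called. RIPK4 averaged 1.41 in HuR by its brighter probe and 1.56 to 1.72 in the other lines.

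Around GUCY1B2, no neighbour probe within 500 kb was called in HuR against TIA1 or TIAR. RNASEH2B, a ribonuclease H2 subunit 46.7 kb away, averaged 3.27 in HuR and 2.78 to 3.43 in the other lines, and DLEU7 averaged -5.27 against -5.14 to -4.76. FAM124A, INTS6, a subunit of the Integrator complex, XLOC_010390 and LOC100507398 were not called either.

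Around ZNF22, C10orf25, 6.4 kb away on the opposite strand, was the nearest measured gene. It read -4.11 and -6.59 in GFP, -7.90 and -8.29 in HuR, -7.51 and -6.17 in TIA1 and -5.48 and -5.06 in TIAR. It was called lower in HuR than in TIAR (-2.82, adjusted p = 0.00545), with an untested bound of at least 1.68-fold. It was not tested against TIA1 because neither line had it well above background on both arrays. RASSF4, 10.72 kb away, averaged -4.65 in HuR and -4.35 to -3.45 in the other lines and was not called, and C10orf10 was lower in HuR than in TIAR alone (-1.48, adjusted p = 0.0140). On the far side, XLOC_l2_001945 was not called, while XLOC_l2_001947 and the olfactory receptor gene OR13A1 were lower in HuR than in TIA1 (-2.06 and -1.24) and in TIAR (-2.52 and -1.19).

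Around LOC84856, the zinc finger pseudogene ZNF37BP, 19.6 kb away, averaged -0.06 and 0.44 by its 2 probes in HuR against -0.70 to 0.67 and -0.21 to 0.77 in the other lines, and ZNF33B read 1.43 on HuR 2, its HuR 1 spot being an outlier, against means of 1.05 to 1.40. Neither was called, nor were XLOC_l2_001929 on that side and AK131313 on the other. On that other side, the cyclin Y-like transcript ENST00000483242, 84.8 kb away, read -3.48 and -5.24 in GFP, -8.12 and -8.35 in HuR, -4.36 and -4.60 in TIA1 and -7.22 and -7.50 in TIAR. It was thus low in HuR and in TIAR. It was called lower in HuR than in TIA1 (-3.75, adjusted p = 0.00178), with an untested bound of at least 2.90-fold. Beyond it, 1 of 3 tested LOC441666 probes was also lower in HuR than in TIA1 (-1.74, adjusted p = 0.0346).

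**Figure D3:**
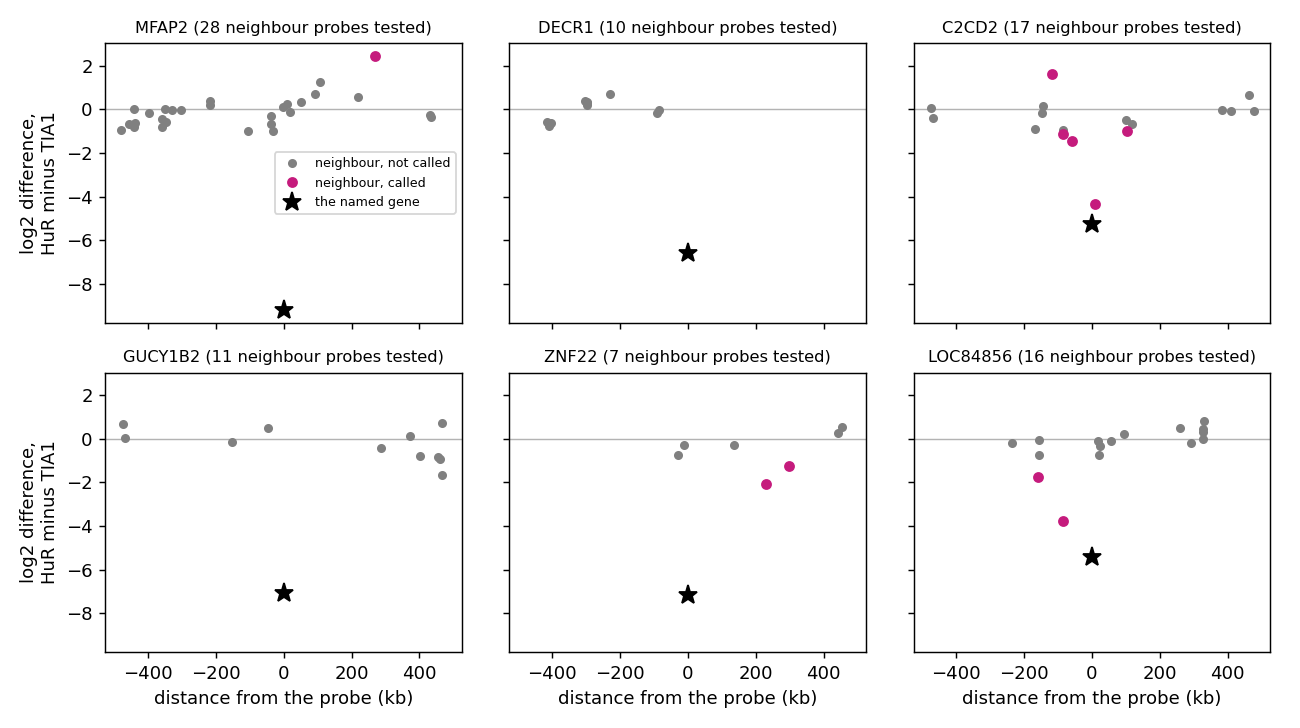
Log2 difference of HuR minus TIA1 for each tested neighbour probe (circles) against its distance in kb from the probe of the named gene (star), in a panel for each gene. Coloured circles passed a fold change of 2 and an adjusted p of 0.05. The stars lie between -5.23 and -9.19, and most circles lie near 0, with ENST00000400449 beside C2CD2 as the lowest at -4.31.

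LOC84856 and ZNF22 are the only pair of the 6 on the same chromosome, 2.51 Mb apart on chromosome 10. Of the 81 other probes between them, 28 were tested in HuR versus TIA1, with RET and RASGEF1A lower and ZNF32 higher in HuR, and 30 in HuR versus TIAR, with RET, RASGEF1A, C10orf25 and C10orf10 lower. RASGEF1A was the single one of the 81 that was well above background on the 6 other arrays and on neither HuR array. RET and RASGEF1A are named here after their values were seen.

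Further genes were followed through a list for each of the 5 genes other than LOC84856, by pathway for MFAP2, DECR1 and GUCY1B2, by name for C2CD2 and by position for ZNF22. In HuR versus TIA1, 8.5% of all tested probes were called lower in HuR and 4.9% higher. In HuR versus TIAR these shares were 7.06% and 3.01%. For MFAP2, 26 microfibril and elastic fibre genes were taken. In HuR versus TIA1, 8 of 30 tested probes were lower (26.7%) and 1 was higher, with a median of -0.32 against -0.08 over all tested probes, and in HuR versus TIAR 6 of 30 were lower (20.0%) and 2 higher, with a median of -0.31 against -0.05. The protease gene ADAMTS10 was lower in HuR than in TIA1 (-2.67, adjusted p = 0.00178) and in TIAR (-2.06, adjusted p = 0.00508). FBLN1, an elastic fibre glycoprotein, was lower in HuR by 3 probes, which share 1 gene and make up 3 of the 8 calls, and EMILIN2 (-1.55) and ADAMTSL4 (-1.39 and -1.07 by 2 probes) were lower than in TIA1.

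For DECR1, 24 genes of mitochondrial beta-oxidation were taken, and calls in both directions were equal or nearly so. In HuR versus TIA1, 3 of 27 probes were lower (11.1%) and 3 higher (median 0.15). In HuR versus TIAR, 2 were lower (7.41%) and 3 higher (median 0.20). The shares called lower were near those over all tested probes, 8.5% and 7.06%. CPT1A (-1.26), which starts the import of fatty acids into mitochondria, and its relative CPT1C (-1.44 and -1.16 by 2 probes) were lower in HuR than in TIA1. CPT2 (1.39), which completes that import, and the dehydrogenase gene ACADL (1.12) were higher.

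For GUCY1B2, 19 genes of guanylate cyclase and cGMP signalling were taken. Against 8.5% and 7.06% over all tested probes, 2 of 19 tested probes (10.5%) were called lower in each comparison. These were the natriuretic peptide receptor gene NPR1 (-2.08 against TIA1 and -1.38 against TIAR) and the phosphodiesterase gene PDE2A (-2.40 and -1.50). The list's median was -0.44 in HuR versus TIA1 and -0.01 in HuR versus TIAR.

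For C2CD2 there is no defined pathway, and 8 genes of the C2CD name series were taken, 7 of them on the array. C2CD4C was lower in HuR (-1.52 against TIA1 and -1.46 against TIAR), C2CD3, a centriole gene, was lower than in TIA1 (-1.51), C2CD4B was lower than in TIAR (-1.62) and C2CD4A was higher than in TIA1 (2.04). In HuR versus TIA1, 2 of 6 tested probes were called lower and 1 higher, and in HuR versus TIAR 2 of 7 were called lower. Of all tested probes, 8.5% were called lower and 4.9% higher in HuR versus TIA1, and 7.06% lower in HuR versus TIAR. The list's medians were -0.34 and -0.23. For ZNF22, 12 zinc finger genes near the centromere of chromosome 10 were taken, on both arms, 11 of them on the array. Beside the shares over all tested probes just given, none of 20 tested probes was called lower in HuR in either comparison. ZNF32 (1.06) and ZNF248 (1.28) were higher than in TIA1, and the medians were 0.34 and 0.13.

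Over the 5 lists together limma called 22 of 102 tested probes in HuR versus TIA1, counting both directions. There 8.5% of all tested probes were lower and 4.9% higher. In HuR versus TIAR it called 17 of 103 in both directions, where 7.06% of all were lower and 3.01% higher. In HuR versus GFP it called 0, and 26 of 101 had an unadjusted p under 0.05. Leaving out HuR 1 or HuR 2 removed most of the 17 calls in HuR versus TIAR. Leaving out GFP 1 or GFP 2 gave calls in HuR versus GFP, for which no share over all tested probes is given.

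Over the whole array, 73 probes of 70 gene names had the same pattern, being well above background on the 6 other arrays and on neither HuR array. The same count with another line as the dark one was 64 for GFP, 114 for TIA1 and 21 for TIAR. Leaving out GFP 1 kept the HuR count at 73 and raised the GFP count to 655, while leaving out GFP 2 or HuR 2 raised the HuR count to 203 and 122. The gap between the lowest of the other arrays and the higher array of the dark line was at least 4 for 10 probes in HuR, for 0 in GFP, for 3 in TIA1 and for 2 in TIAR. Without GFP 1 it was at least 4 for 3 probes in GFP and still for 10 in HuR. By the weaker flag the HuR count was 80, and of the 7 probes C2CD2 alone had the pattern.

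The 7 probes stood at ranks 1, 4, 5, 6, 9, 10 and 19 of the 73 by this gap, with 8.62 for MFAP2, 6.32 for ZNF22, 6.08 for GUCY1B2, 5.76 for DECR1, 4.45 for C2CD2 and 4.17 and 2.46 for LOC84856. Since no HuR reading of the 73 probes was well above background, the gap orders mainly how bright a probe was elsewhere and not how much RNA was lost. The probe just ahead of the lower LOC84856 probe was CACNG6, with 2.47, and the one just after it was ENST00000416722, with 2.30.

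**Figure D4:**
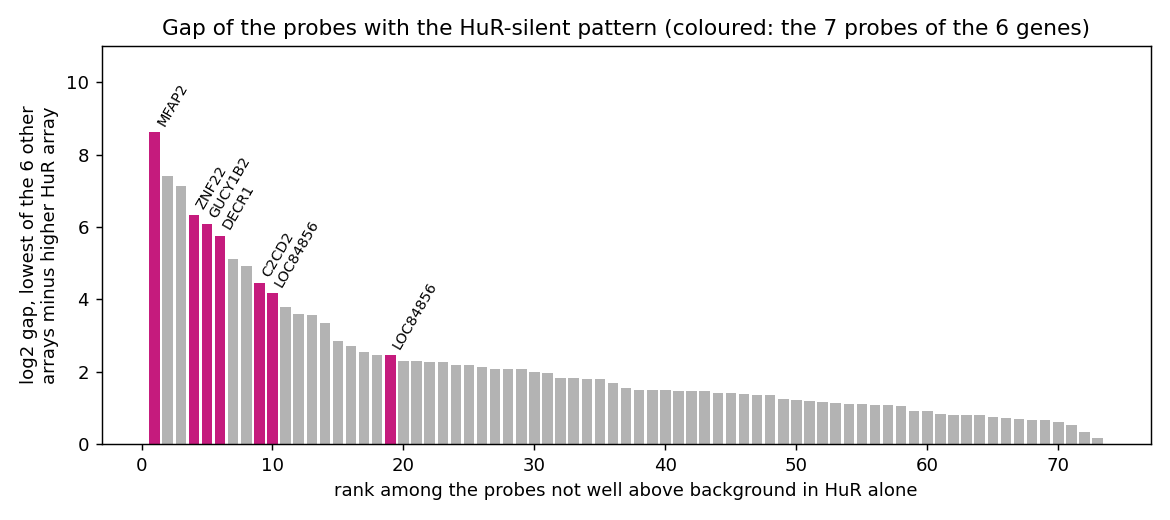
Gap on the log2 scale between the lowest of the 6 GFP, TIA1 and TIAR arrays and the higher of the 2 HuR arrays, for the 73 probes not well above background in HuR alone, in order of size. Coloured bars are the 7 probes of the 6 genes. MFAP2 has the largest gap, 8.62, and 10 probes reach 4.

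The 10 other genes most like the 6 by this gap included 1 named noncoding RNA with 2 probes. GNAS-AS1, the antisense RNA of the imprinted GNAS locus, read -0.59 and -0.44 in GFP, -8.01 and -8.16 in HuR, 0.39 and 0.34 in TIA1 and -0.25 and -0.33 in TIAR by its leading probe, a bound of at least 45.4-fold for GFP (47.9-fold with GFP 2 alone), 83.6-fold for TIA1 and 53.0-fold for TIAR over HuR. A second GNAS-AS1 probe 102 bases away had a gap of 7.14. The unnamed noncoding transcript XLOC_l2_006152 had gaps of 5.11 and 3.56 by 2 probes 2.24 kb apart, and another probe of it, with a gap of 0.41, was detected on 1 array. The zinc finger gene ZNF730 had a gap of 4.93, and its other probe, 4.56 kb away and detected on 2 of the 8 arrays, one of 0.21.

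XLOC_l2_006665, 2.49 kb from the ZNF730 probe, had a gap of 3.34. Its other probe, 49.2 kb away, read -2.08 and -2.06 in HuR and -2.03 to -1.57 on the other arrays, so the 2 probes under this name differed. ENST00000400449 (3.80), described above beside C2CD2, the unmapped probe A_33_P3424856 (3.60), the keratin gene KRT17 (2.85), XLOC_014036 (2.73), XLOC_009006 (2.56) and the calcium channel subunit gene CACNG6 (2.47) completed the 10.

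Of the 72 probes with the pattern that had a position, 12 had another within 50 kb, as 6 pairs. The pairs of LOC84856, XLOC_l2_006152 and GNAS-AS1 were each 2 probes under the same name. Another was C2CD2 with ENST00000400449, which may be a single transcription unit. Pairs under the same name are not set apart in the counts that follow. For the other lines as the dark one, 0 of 64 probes with a position had such a neighbour in GFP, 10 of 112 in TIA1 and 2 of 21 in TIAR, but leaving out GFP 1 gave 66 of 650 in GFP, with 12 of 72 in HuR. MFAP2, DECR1, GUCY1B2 and ZNF22 had no other probe with the pattern within that distance.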

How the data were processed

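RNA of 8 samples, 2 for each of 4 FT293 lines, was measured on one-colour Agilent human 8x60K arrays. Per the file headers, the authors extracted the deposited intensity values with Feature Extraction 10.7.3.1, which subtracts the background of each array and leaves differences in brightness among arrays uncorrected. The deposited table of the series holds log2 values, which the authors normalized before deposit, and the submitters' processing notes name limma. Groups follow the sample titles, also for the TIA1 array whose source name differs.

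Processed signals were log2-transformed and the array's 75th percentile was subtracted. Control and outlier spots were dropped, and replicate spots were averaged. A probe entered a comparison if some compared line had it well above background on both arrays. Limma 3.58.1 in R 4.3.3 was fitted to the 4 arrays compared, and a call needed a 2-fold change with a Benjamini-Hochberg adjusted p below 0.05. The procedure was checked on simulated data with 200 probes changed by 3 on the log2 scale. It recovered 199 in each comparison without GFP, 136 in HuR versus GFP, 150 in TIA1 versus GFP and 159 in TIAR versus GFP. False calls numbered 6 to 13. Plots were drawn with matplotlib 3.10.9.

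The genes, the gene lists and the tests were chosen with earlier results of these data known. The text names the 6 genes with all probes, the nearest 3 measured genes on each side, up to 4 called genes of each list, the 10 genes most like the 6, and ELAVL1, TIA1 and TIAL1. Alternatives were normexp background correction (offset 50), quantile normalization, the authors' table, other filters on dim probes, all 8 arrays in one fit, a replicate block, other windows, the weaker detection flag and leaving out each array. The number of arrays limits the precision. Without a genome of the build used by the array, probes were not assigned to exons or untranslated regions, and the probe sequences of DECR1, ZNF22 and C2CD2 and 1 cell type marker are not reported here.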

Additional observations from a re-analysis of the deposited data

How the results depend on the processing

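The median difference of the 7 probes between HuR and the other arrays, -6.54, moved to -3.61 with normexp and -3.21 in the authors' table, and no probe changed sign. Of the 7 probes, 1 was called in TIAR versus TIA1, and 0 with all 8 arrays in one fit, without the filter on dim probes, or with any array left out (0 to 0). In TIA1 and TIAR versus GFP the count was 0 under every alternative.

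The correlation of replicate deviations between lines ran from -0.09 to 0.18. With 2 arrays a line, this cannot show whether arrays of the same number share a batch. With the replicate block the call in TIAR versus TIA1 fell from 1 to 0, and the other counts stayed within 1.5 times, with 9 and 7 neighbour probes and 22 and 15 list probes against TIA1 and TIAR.

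Neighbour probes lower in HuR than in TIA1 numbered 8, and 4 when detection on all arrays was required, 1 in the authors' table, 5 without the filter, 3 with normexp, 4 within 100 kb, 13 within 1000 kb and 6 to 12 with an array left out. Against TIAR they numbered 7, and 2, 1 and 3 with detection on all arrays, the authors' table and normexp, 4 within 100 kb, 11 within 1000 kb and 4 to 10 with an array left out. Against GFP they numbered 0, 3 with all 8 arrays in one fit and 0 to 24 with an array left out.

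List probes called against TIA1 numbered 22, 12 in the authors' table and 15 to 24 with an array left out. Against TIAR they numbered 17, 9 in the authors' table, 9 with all 8 arrays in one fit, 11 without the filter, 10 with normexp and 1 to 18 with an array left out. Against GFP they numbered 0, 4 with all 8 arrays in one fit and 0 to 23 with an array left out. The count of probes with the HuR-silent pattern, 73, was 80 with the weaker flag, C2CD2 being the 1 of the 7 probes among them, and 73 to 203 with an array left out. The causes of these shifts were not tested, and no share over all tested probes is given for the alternatives. Signal over background limits what can be said of the HuR readings.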

Other observations

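Among the 73 probes with the same pattern, those of H19 and MEST were seen after their values were known. H19, a maternally expressed noncoding RNA, read -2.78 and -3.47 in GFP, -7.23 and -7.28 in HuR, -3.88 and -4.00 in TIA1 and -5.08 and -4.82 in TIAR, a gap of 2.15. MEST, a paternally expressed gene, read -1.29 and -3.29 in GFP, -6.68 and -6.28 in HuR, -3.91 and -3.49 in TIA1 and -4.35 and -4.47 in TIAR, a gap of 1.81. Both are imprinted, as GNAS-AS1 is. Imprinted genes without the pattern were not counted, and no test of a common property was made.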
